A study of Mus musculus with 6 samples.

Results

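The Notch receptors Notch1, Notch2 and Notch3, the ligands Jag1, Jag2 and Dll1, and the target genes Hes1, Hes6, Hey1 and Hey2 were followed in mouse glial cells with and without a K27M mutant of histone H3.3. These 10 genes were chosen by name, from 22911 genes that could be named on the array through the RefSeq accession of a probe. WT cells (labeled OS3-vector) were OS3 cells with the empty vector, and IG27 cells (labeled OS3-H3F3A_K27M) were OS3 cells that had received the H3F3A K27M plasmid. OS3 is a glial line from the brain of newborn C3H/HeN mice (strain labeled C3H, sex male) that was immortalized with SV40 and has the features of a bipotential glial progenitor, so both groups carry the viral oncogene. RNA was taken after 2 days of culture in the same serum-containing medium from 3 samples per group, and each sample was hybridized to 1 single-color Agilent array. Clones were picked by drug selection after transfection, and the sources used here do not say whether the arrayed IG27 cells came from more than 1 of them. The p-values therefore measure the spread between samples of these lines, and the K27M plasmid cannot be told apart from other differences between the selected lines.

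Notch signaling passes between touching cells. A ligand of the Jagged or Delta-like family on one cell binds a Notch receptor on its neighbor, the receptor is cut by ADAM10 and then by gamma-secretase, and the released intracellular domain joins the DNA-binding protein RBPJ in the nucleus and switches on target genes such as the Hes and Hey repressors. In the developing brain this pathway keeps neural progenitors from becoming neurons and favors glial fates, and the Hes and Hey proteins do so by repressing proneural genes.

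Values are given as normalized log2 intensity, in which 0 is the 75th percentile of an array and a step of 1 is a doubling, and differences are IG27 minus WT. Between 58.8% and 61.2% of probes were well above background by the flag of the scanner software on the 5 arrays whose scanner output was complete (flagged arrays hereafter). No probe was saturated on these 5. The flag was not available for IG27 replicate 2, whose scanner output was truncated and whose intensities were taken from the authors' value table. Log2 values of arrays correlated at 0.994 to 0.997 across genes within a group and at 0.902 to 0.905 between groups. The transcriptome differed broadly: of 14898 genes tested, 10501 (70.5%) passed an adjusted p of 0.05 (limma, Benjamini-Hochberg), 4546 (30.5%) of them higher in IG27 cells and 5955 (40.0%) lower. Counts below are set against these shares. In such bulk samples fewer cells of a type and less RNA per cell cannot be told apart.

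Promoter sequences were matched for 8 of the 10 genes in a RefSeq table (build GRCm38.p6). Hes1 and Hey1 had no entry there, so their promoters were not searched. Printed here, 5′ to 3′ on the strand of the gene, are the 250 bases before the start of Notch1, Jag1 and Dll1, the receptor and the ligands with the largest differences, and of Hes5, a Notch target outside the 10 that was far brighter in IG27 cells. Capitals mark TGGGAA, the core of the site that RBPJ binds, and CACGCG, a site of Hes repressors, on either strand.
Notch1 (chr2:26503823-26504072, minus strand): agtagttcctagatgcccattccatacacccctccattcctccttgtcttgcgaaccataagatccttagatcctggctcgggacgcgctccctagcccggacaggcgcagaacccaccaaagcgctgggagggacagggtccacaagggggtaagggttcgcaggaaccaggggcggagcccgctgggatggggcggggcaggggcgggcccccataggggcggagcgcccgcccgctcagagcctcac
Jag1 (chr2:137116521-137116770, minus strand): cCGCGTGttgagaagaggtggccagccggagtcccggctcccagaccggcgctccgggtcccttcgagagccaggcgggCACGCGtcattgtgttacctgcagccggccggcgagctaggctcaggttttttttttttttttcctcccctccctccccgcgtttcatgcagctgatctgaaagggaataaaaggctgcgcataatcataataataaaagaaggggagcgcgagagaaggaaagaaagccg
Dll1 (chr17:15376933-15377182, minus strand): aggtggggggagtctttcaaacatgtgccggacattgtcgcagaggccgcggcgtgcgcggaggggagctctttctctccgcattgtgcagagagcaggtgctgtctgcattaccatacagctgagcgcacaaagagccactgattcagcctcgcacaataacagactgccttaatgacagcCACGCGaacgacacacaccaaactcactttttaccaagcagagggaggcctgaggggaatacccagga
Hes5 (chr4:154960673-154960922, plus strand): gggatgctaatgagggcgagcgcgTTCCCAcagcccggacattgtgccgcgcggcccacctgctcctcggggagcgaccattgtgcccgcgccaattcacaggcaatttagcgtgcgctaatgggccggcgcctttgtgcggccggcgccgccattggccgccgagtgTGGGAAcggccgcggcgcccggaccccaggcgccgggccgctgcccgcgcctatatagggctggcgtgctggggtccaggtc

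The receptor promoter of Notch1 held neither of the marked motifs and 5 copies of the GC box GGGCGG, a motif found in 32.7% of 32851 promoters of this length. The Jag1 promoter held 2 copies of CACGCG, beginning at positions -249 and -171 from the start, and the Dll1 promoter printed here held 1, at -68. Another annotated start of Dll1 had none. CACGCG was present in 7.62% of all promoters, and Notch2 also had 1 copy. The Hes5 promoter held 2 copies of TGGGAA, at -226 and -82, against 21.6% of all promoters with at least 1. Among the 8 genes matched, Hey2 was the only other one with TGGGAA, with 1 copy at -207. The Hey and Hes E box CACGTG, which 6.02% of promoters hold, was in none of the windows of the 8 genes or of Hes5. These matches describe letters in a short window, and no binding was measured.

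Of the 10 genes, 9 had a probe that entered the test and 7 of these differed between the groups, 4 higher (Notch1, Notch3, Jag1 and Hes1) and 3 lower (Dll1, Hes6 and Hey1) in IG27 cells, beside 70.5% of all genes. The arrays of the groups did not overlap for any of the 9, and did not overlap for 75.7% of all genes tested. Differences of 1 or more on the log2 scale that passed the test were seen for Notch1, Jag1, Dll1, Hes1 and Hey1, a class that held 23.1% of all genes. Jag1 entered the test only through its level in IG27 cells, and Hey2 was not tested, so these counts describe the genes and test nothing about them as a set. Roles were mixed, with a receptor that rose beside another that did not pass the test, a ligand that rose beside another that fell, and a target that rose beside others that fell.

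**Figure D1:**
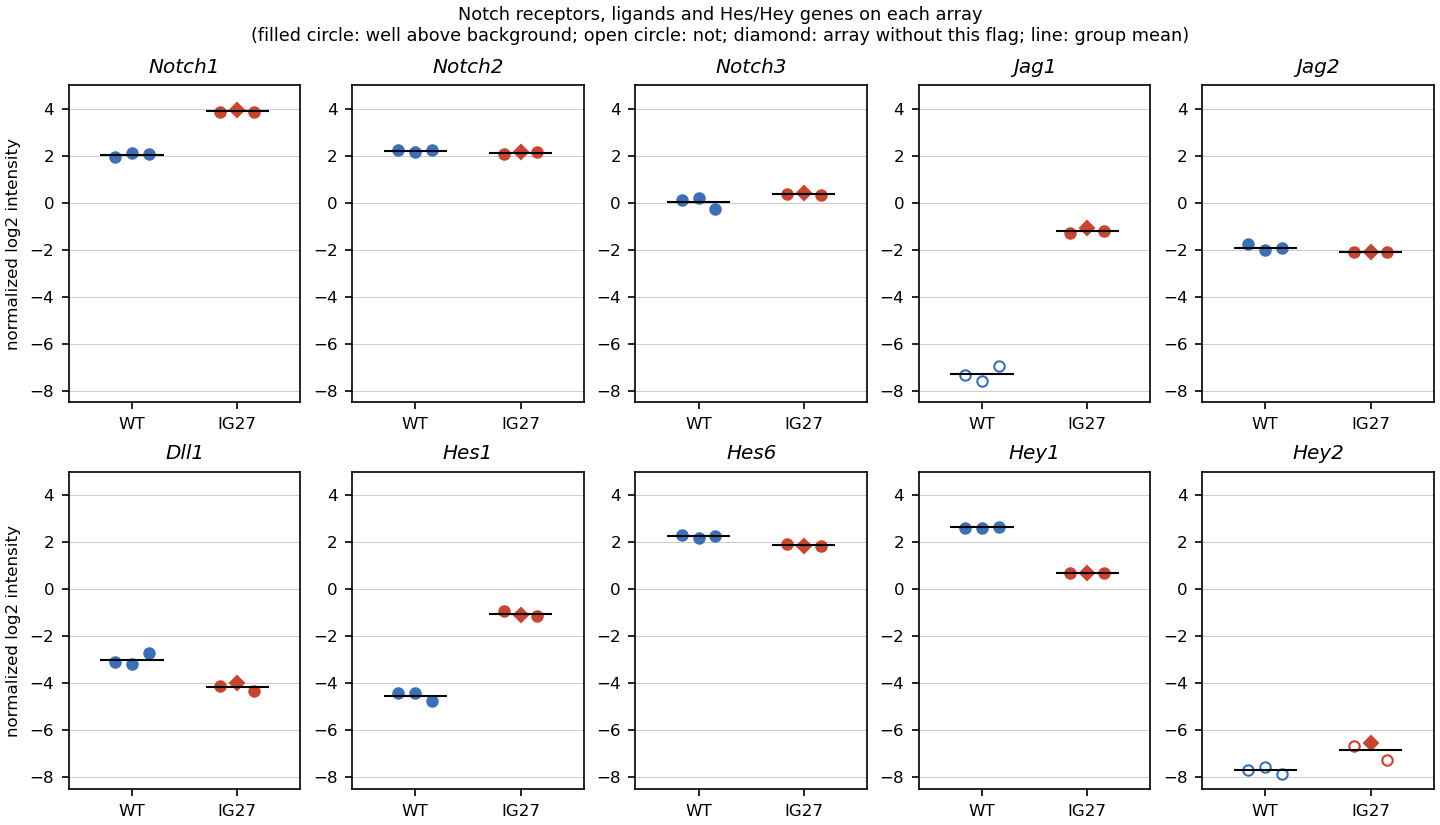
Normalized log2 intensity (y axis) of each of the 10 genes on the 3 WT and 3 IG27 arrays, with a line at each group mean. Filled circles were well above background, open circles were not, and diamonds are IG27 replicate 2, which lacks the flag. Jag1 is open in all WT samples and Hey2 on all 5 flagged arrays, while Hes1 and Notch1 sit higher and Hey1 lower in all IG27 samples.

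Notch1, the receptor most studied in glia and a main driver of Hes gene expression, was higher in IG27 cells. Its normalized log2 intensity was 1.94, 2.13 and 2.06 in WT replicates 1, 2 and 3 and 3.84, 3.96 and 3.86 in the IG27 replicates. All IG27 samples lay well above all WT samples, with little spread within either group. The difference was 1.84 ± 0.07 (SE, n = 3 per group), a 3.59-fold rise with a 95% interval of 3.20 to 4.02 (limma, adjusted p = 2.27e-06). Of all genes tested, 10.8% differed by at least as much in either direction.

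Notch2, the receptor that cooperates with Notch1 in neural progenitors, did not pass the test. It measured 2.22, 2.15 and 2.25 in WT cells and 2.08, 2.13 and 2.13 in IG27 cells. The groups touched without overlapping, the lowest WT sample lying just above the highest IG27 sample. The difference of -0.09 ± 0.05 (SE, n = 3 per group) had a 95% interval of -0.21 to 0.03 (limma, adjusted p = 0.148), so a change of more than about 1.16-fold downward lay outside the interval. Within each array the change of Notch1 exceeded that of Notch2 by 1.93 on the log2 scale, and the arrays did not overlap in this ratio (exact permutation test, two-sided, p = 0.1, the smallest that 3 against 3 samples can give).

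Notch3, a receptor best known from vascular smooth muscle and also expressed in gliomas, was slightly higher in IG27 cells, and this was the call that rested on the least. Its values were 0.10, 0.20 and -0.27 in WT cells and 0.35, 0.42 and 0.30 in IG27 cells. WT replicate 3 lay apart below the other WT samples, while the IG27 samples lay close together above all of them. The difference was 0.35 ± 0.13 (SE, n = 3 per group; limma, adjusted p = 0.0483), and in a fit over all probes instead of 1 probe per gene the adjusted p was 0.0559. When 1 array was left out, the call was lost in 4 of 6 fits, with adjusted p of 0.0604 without WT replicate 1 and of 0.113, 0.126 and 0.0903 without IG27 replicates 1, 2 and 3 (limma). It was kept without WT replicate 2 (0.44; limma, adjusted p = 0.0256) and without WT replicate 3 (0.21; limma, adjusted p = 0.0420), and with slide row as a block, which sets the IG27 samples against WT replicate 2 alone, it was 0.16 (limma, adjusted p = 0.430).

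Jag1, the Jagged ligand that is widely expressed in glial cells and tumors, had the largest difference of the 10 genes. Its probe was not well above background on any WT array, with processed signals of 6.60, 5.45 and 8.02 intensity units, and it was well above background on both flagged IG27 arrays, with signals of 452, 540 and 427 in the IG27 replicates. The local background around its spots, a raw reading on another scale than the processed signals, was between 27 and 35 units. On the normalized scale the WT values were -7.34, -7.58 and -6.94 and the IG27 values -1.28, -1.07 and -1.23. Measured against the dimmest signal that counted as well above background on each WT array, Jag1 was at least 23.9-fold higher in IG27 cells. The probe entered the test only through its level in IG27 cells, so no p-value is set beside this bound. With normexp correction, whose offset of 50 lifts dim signals, the difference was 2.73, below the 4.58 of that bound on the log2 scale.

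Jag2, the other Jagged ligand, was near the threshold. Its values were -1.78, -2.03 and -1.94 in WT cells and -2.11, -2.10 and -2.09 in IG27 cells. The IG27 samples lay almost on top of each other, just below the lowest WT sample. The difference was -0.18 ± 0.07 (SE, n = 3 per group; limma, adjusted p = 0.0566), with a 95% interval of -0.36 to -0.01. It passed the test after quantile normalization, at -0.32 (limma, adjusted p = 0.00770), and without WT replicate 2, at -0.24 (limma, adjusted p = 0.0253).

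Dll1, the Delta-like ligand that neural progenitors present to their neighbors, was lower in IG27 cells. It measured -3.09, -3.18 and -2.71 in WT cells and -4.12, -3.97 and -4.31 in IG27 cells. Every IG27 sample lay below every WT sample, and WT replicate 3 was the highest. The difference was -1.14 ± 0.15 (SE, n = 3 per group), or 2.20-fold lower with a 95% interval of 1.71 to 2.83 (limma, adjusted p = 6.23e-04). The gene was dim, with processed signals of 115 to 151 units in WT and 50.2 to 72.3 units in IG27 cells, and with normexp background correction the difference shrank to -0.62 (limma, adjusted p = 0.00128). Relative to Jag2 on the same arrays, Dll1 changed by -0.96 on the log2 scale.

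Hes1, the repressor that is the classic direct target of Notch in progenitors, was much higher in IG27 cells. Its values were -4.41, -4.41 and -4.75 in WT cells and -0.92, -1.09 and -1.12 in IG27 cells. The groups stood far apart, and the probe was well above background on all 5 flagged arrays. The difference was 3.48 ± 0.11 (SE, n = 3 per group), an 11.2-fold rise with a 95% interval of 9.24 to 13.5 (limma, adjusted p = 1.39e-06). The WT signals of 36.7 to 50.4 units were dim, and normexp correction gave a smaller difference of 2.33 (limma, adjusted p = 9.03e-07).

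Hes6, a Hes family member that opposes Hes1 and promotes neuronal differentiation, was modestly lower in IG27 cells. The brighter of its 2 probes measured 2.30, 2.19 and 2.26 in WT cells and 1.94, 1.83 and 1.85 in IG27 cells. The dimmer probe, at -2.65, -2.70 and -2.60 in WT cells and -3.00, -2.94 and -2.91 in IG27 cells, ranked the groups the same way, with no overlap for either probe. The brighter probe differed by -0.38 ± 0.06 (SE, n = 3 per group; limma, adjusted p = 0.00116), and the dimmer probe by -0.30 ± 0.06 (SE, n = 3 per group; limma over all probes, adjusted p = 0.00392).

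Hey1, a repressor that is induced by Notch in vessels and in neural progenitors, moved opposite to Hes1. It measured 2.60, 2.63 and 2.67 in WT cells and 0.70, 0.71 and 0.72 in IG27 cells. The replicates of each group were nearly identical. The difference was -1.93 ± 0.04 (SE, n = 3 per group), or 3.80-fold lower with a 95% interval of 3.53 to 4.10 (limma, adjusted p = 3.84e-07). In the ratio of Hes1 to Hey1 the groups were 5.41 apart on the log2 scale, and in the ratio of Hes1 to Hes6 they were 3.86 apart, without overlap of the arrays (exact permutation test, two-sided, p = 0.1 for each, the smallest possible; 4 such ratios were computed, all at this p, and the adjusted value is 0.1 as well).

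Hey2, the partner of Hey1 in vessels and heart, was not measured above background. Its signals were 5.23, 5.55 and 4.25 units in WT cells and 10.8, 12.1 and 6.53 units in IG27 cells, well above background on no flagged array. No fold is given for it.

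**Figure D2:**
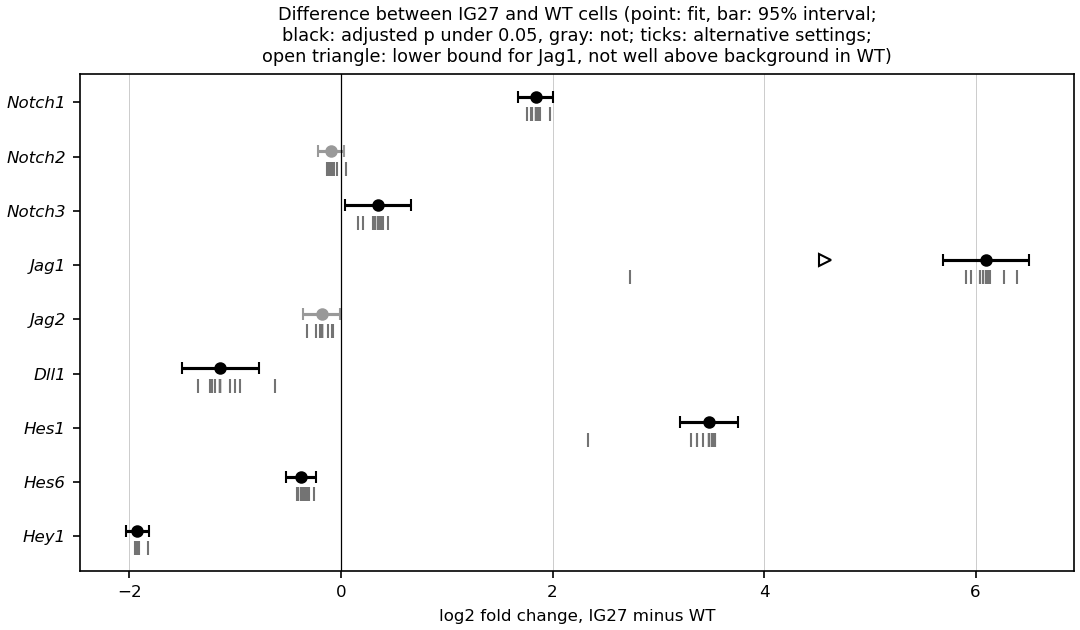
Log2 fold change of IG27 minus WT (x axis) for the 9 genes tested, with 95% intervals, and ticks below each for the alternative processing settings. Notch1, Hes1 and Hey1 lie far from 0 under every setting, Notch2 and Jag2 lie near 0, and the lone tick toward 0 for Jag1 (2.73), Hes1 (2.33) and Dll1 (-0.62) is normexp correction. The open triangle is the lower bound for Jag1 (4.58).

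The rest of the pathway was described with 70 other gene names, among them Tle5 and its older name Aes. Of these names 68 matched a gene on the array, and 57 genes were tested. In IG27 cells 17 of these rose, 25 fell and 15 did not pass, so 73.7% were called beside 70.5% of all genes, and their median difference was -0.05 against -0.07 over all genes. The list as a whole thus differed about as often as the array. Among receptors and ligands, Notch4 was higher by 0.76 (limma, adjusted p = 0.0261), with values of -0.90, -0.13 and -0.04 in WT cells, of which replicate 1 lay apart, and 0.55, 0.38 and 0.30 in IG27 cells. Its other probe was not well above background on any flagged array. Dll3, a Delta-like protein that acts inside the cell it is made in, fell by 2.47 (limma, adjusted p = 5.91e-07). The noncanonical ligands Dlk1 and Dlk2 moved apart, with differences of 1.74 (at 1 of 2 probes, the other being not well above background) and -2.08. Dll4 was not well above background on any flagged array.

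Of 9 genes for receptor cleavage, 2 were higher and 5 lower. Adam10, the protease that makes the first cut of an activated receptor, fell by 2.08 on the log2 scale (limma, adjusted p = 9.77e-07), with a fall of 1.93 at its other probe. Its normalized values were 5.65, 5.73 and 5.81 in WT cells and 3.71, 3.64 and 3.60 in IG27 cells. The groups were clearly separate. The gamma-secretase subunits Aph1a, Aph1b and Aph1c fell, with differences of -0.52, -0.90 and -0.68, and the 4 probes of Aph1a ran from -0.72 to -0.19.

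Of 5 genes for receptor glycosylation, 1 was higher and 3 were lower. The Fringe enzymes add sugars to Notch that change which ligands it answers to, and they moved apart. Mfng rose from values of -3.92, -3.71 and -3.91 in WT cells to -0.36, -0.44 and -0.41 in IG27 cells, with no overlap, a difference of 3.45 ± 0.07 (SE, n = 3 per group; limma, adjusted p = 2.75e-07). Lfng and Rfng fell, with differences of -0.64 and -0.90, and Poglut1, which adds O-glucose to the receptor, fell by 0.20.

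All 4 ubiquitin ligases that act on ligands passed the test, with Mib1 (0.65) and Mib2 (0.52) higher and Neurl1a (-1.36) lower. Neurl1b fell by 0.41 at its brighter probe (limma, adjusted p = 5.92e-04), while its dim other probe did not pass (0.88, with a 95% interval of -0.39 to 2.15). Of 9 modulators of the receptor, 1 was higher (Dtx1, 0.37) and 3 were lower, among them Dtx4 (-1.06) and Itch (-0.30), while Numbl differed by -0.23 at its brighter probe and by 0.28 at the other, which did not pass (95% interval -1.19 to 1.74).

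Of 9 genes of the RBPJ complex and its coactivators, 4 were higher and 2 lower. Rbpj itself measured 0.76, 0.70 and 0.92 in WT cells and 1.75, 1.70 and 1.52 in IG27 cells, all IG27 samples lying above all WT samples. Its difference was 0.86 ± 0.09 (SE, n = 3 per group; limma, adjusted p = 2.16e-04), and 0.67 at its other probe. The Mastermind coactivators Maml2 and Maml3 moved apart, by -1.27 and 1.10 (0.38 at the other probe of Maml3), and the acetyltransferase Kat2b was higher by 0.75. Of 12 corepressors 4 were higher and 7 lower. The 4 named for the largest changes were Tle genes of the Groucho family. Tle1 (1.18) and Tle4 (1.27) were higher, while Tle2 (-0.97, and -4.53 at its other probe) and Tle5 (-1.12) were lower.

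Among the other Hes and Hey genes, Hes5, the Notch target typical of neural stem cells and radial glia, was far brighter in IG27 cells. The probe tested had signals of 23.5, 10.6 and 15.7 units in WT cells, well above background on 1 of 3 arrays, and of 709, 765 and 617 units in IG27 cells. The IG27 samples were all far above the WT samples. This probe entered the test only through its level in IG27 cells, so it is described by its signals. The other Hes5 probe was not well above background on any flagged array, with signals of 8.02, 9.20 and 5.25 units in IG27 cells. Heyl was not well above background on any flagged array, and 2 other tested members of this group did not pass.

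**Figure D3:**
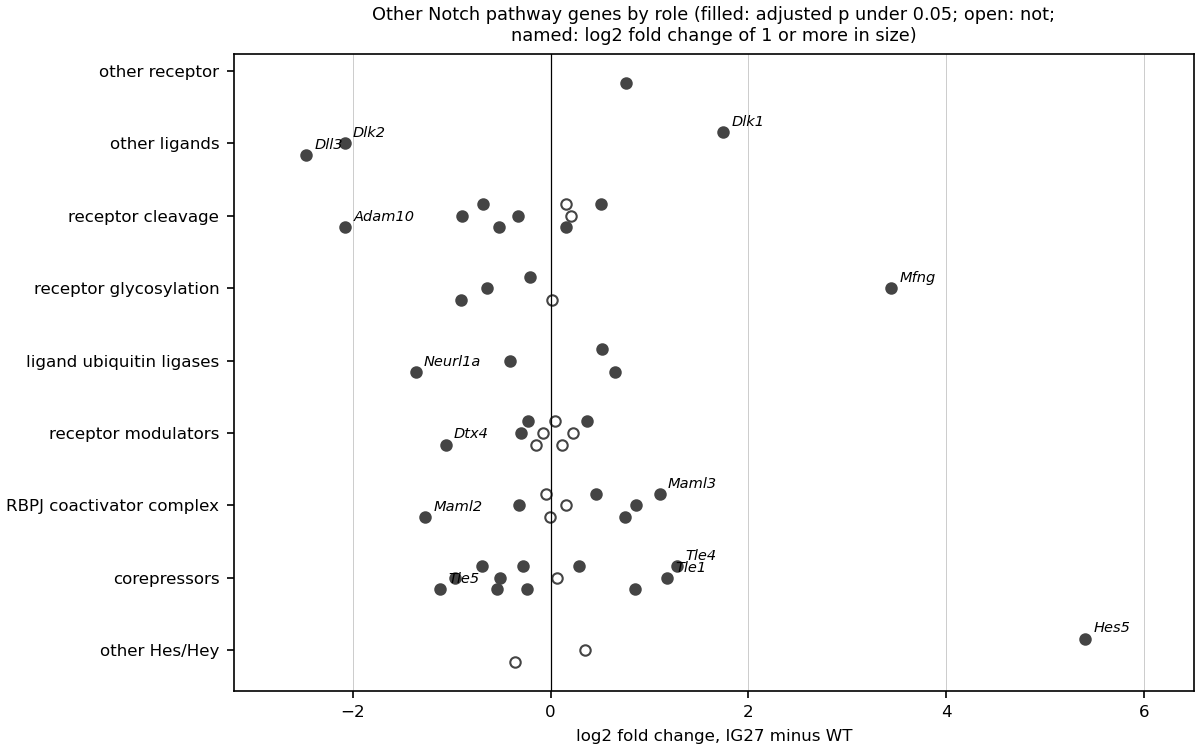
Log2 fold change of IG27 minus WT (x axis) for the other pathway genes tested, by role (y axis, points shifted vertically for legibility, proneural genes not drawn). Filled points passed an adjusted p of 0.05, and genes with a change of 1 or more in size are named. Genes lie on both sides of 0 in most roles, with Mfng (3.45) far to the right and Hes5 (drawn at a fitted 5.40 that rests on dim WT signals) beyond it, and Dll3 (-2.47) farthest to the left.

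The 10 genes lie on 7 chromosomes, and the neighbors of each were compared with it, using up to 5 tested genes on either side. Notch1 and Jag1 both lie on chromosome 2, whose median difference over 1148 genes was -0.34. The 10 neighbors of Notch1 had a median of -0.51, with 0 higher and 8 lower, and its adjacent genes Sec16a and Egfl7 had differences of -0.77 and -1.27. The 10 neighbors of Jag1 had a median of -0.60, with 0 higher and 7 lower. Both genes thus rose among neighbors that fell or did not pass. Dll1 on chromosome 17 had the opposite setting, with 7 of 10 neighbors higher, 0 lower and a median of 0.35.

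Hes1 on chromosome 16 rose in a stretch with 6 of 10 neighbors higher and 3 lower. In this stretch Ostn had a fitted difference of 3.46 and Fam43a of 2.58. The genes directly beside Hes1, Opa1 and Gp5, differed by -0.03 and -0.50. Hey1 on chromosome 3 had 1 of 9 neighbors higher and 6 lower, with Stmn2, the tested gene next to it, at least 5.34-fold lower in IG27 cells, where its probe was not well above background. The medians around Notch3 (0.18), Notch2 (0.10), Jag2 (-0.01) and Hes6 (-0.09) were small.

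**Figure D4:**
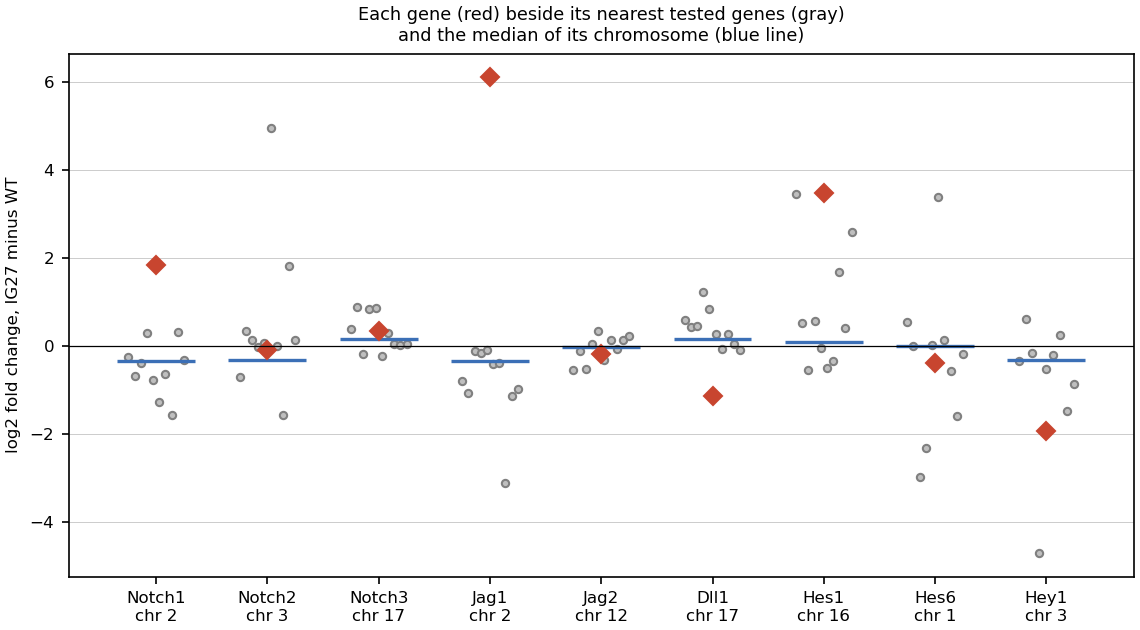
Log2 fold change of IG27 minus WT (y axis) of the 9 tested genes (red diamonds), their nearest tested genes in order along the chromosome (gray circles) and the median of the chromosome (blue lines), all as fitted, also where a group was not well above background. Notch1 (1.84) and Jag1 (fitted value 6.10, with WT samples at background) lie above all their neighbors and Dll1 (-1.14) below all of its own.

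The genes with the most similar profiles over the 6 arrays were found by the root mean square difference of centered log2 values, a description that a shared difference between the groups dominates. For Notch1 they were Hfe (0.05), Rcn3 (0.05) and Cd274 (0.05), for Hes1 4631405J19Rik (0.05), Mndal (0.07) and Smok2b (0.07), and for Hey1 Ccdc91 (0.03), Mboat1 (0.03) and Pdpn (0.04). No gene of the pathway was among the 3 most similar genes of any of the 9 tested.

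Marker genes of glial and other cells were also read, and they differed in both directions. Gfap, Sox10, Nes and Vim were well above background on all 5 flagged arrays, with differences of -1.07, -0.37, -0.49 and -0.15 (the last did not pass). So were Col1a1, Pdgfrb, Tubb3 and Itgam of the fibroblast, neuronal and microglial lists, so detection alone does not name a cell type. Of 6 neural progenitor markers 0 were higher and 2 lower. Pax6 was well above background on no flagged array and Prom1 on 1 WT array only. The radial glial genes Slc1a3 and Fabp7, which were above background in no WT sample by the flag, were at least 20.6-fold and 110-fold higher in IG27 cells. Among 7 astrocyte and radial glial markers, 3 were higher and 3 lower. Their summed signal was 102682 to 106417 units in WT and 62646 to 69754 units in IG27 cells. Most of it came from 1 Gfap probe, with 101314 to 105113 units in WT and 46578 to 55119 units in IG27 cells. The other Gfap probe differed by 0.19 (limma over all probes, adjusted p = 0.0321). The oligodendrocyte lineage markers Olig1, Olig2 and Pdgfra were higher by 1.48, 1.51 and 2.36. Of 7 endothelial markers, whose cells use Notch1, Jag1 and Hey genes, Cdh5, Tek, Tie1 and Cldn5 were not well above background on any flagged array, and the summed signal of 258 to 306 units in WT and 2836 to 3310 units in IG27 cells came mainly from Pecam1 and Vwf in WT cells and from Kdr, which was at least 135-fold higher, in IG27 cells. Of 7 microglial markers 4 were higher and 2 lower, with Cx3cr1 not well above background, and of 6 neuronal markers 1 was higher and 2 lower, with Rbfox3 and Syt1 not well above background. Of 6 fibroblast and pericyte markers 1 was higher and 2 lower, with summed signals of 127213 to 136304 units in WT and 65609 to 78982 units in IG27 cells. Most of this signal came from 1 Col1a1 probe, which differed by -0.92, while the other Col1a1 probe differed by -0.33. The part of cell composition in the differences of the Notch genes was not tested.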

How the data were processed

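Total RNA was labeled with Cy3 and hybridized to Agilent mouse arrays, and the authors read the spot intensity with Feature Extraction (9.1 per the labels' processing notes, 10.7.3.1 per the file headers). The deposited values were processed signals on a linear intensity scale, from scanner output and from a value table of the same intensity. The scanner output of IG27 replicate 2 stopped after 285 of 62976 spots, so the table gave its values. The table's columns of WT replicates 2 and 3 held each other's scanner values, and the scanner labels were used. Which source has the right labels cannot be told from the values. Statements on WT replicate 2 or 3 alone rest on this choice. The labels and the methods name different RNA kits.

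Each array's 75th percentile was subtracted from log2 of its signals. Spots with an outlier flag were left out. Probes were named through RefSeq accessions, the brightest probe stood for a gene, and a gene was tested if it was well above background on every flagged array of at least 1 group. Limma (version 3.58.1, R 4.3.3; lmFit and eBayes, two-sided, threshold 0.05 after Benjamini-Hochberg) was fitted over all genes without a block, and the steps were tested on simulated data. The number of arrays limits the precision. All 10 genes were named, with Notch4, Dll3, Dll4, Hes5, Heyl and Rbpj, up to 4 called genes of largest change per role without overlap of the arrays, and the 3 genes most like each. Egfl7, Sec16a, Ostn, Fam43a, Opa1, Gp5 and Stmn2 were named after their values were seen. The genes, the lists and the tests were chosen with earlier results of these data known. Alternatives were complete arrays only, the table read by label, quantile and normexp normalization (offset 50, on median signals), other filters, outlier spots kept, the mean of probes, eBayes with trend, replicate and slide row as blocks, an unadjusted p and each array left out. 1 gene of the pathway list is counted but not reported here.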

Additional observations from a re-analysis of the deposited data

How the results depend on the processing

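Notch1, Dll1, Hes1, Hes6 and Hey1 kept their direction and stayed past the threshold under all 17 alternatives. Notch2 stayed short of it under all 17 (at 0.04 after quantile normalization, with its sign turned). Jag1 kept its direction under the 16 that gave a value (with the filter in both groups it was not tested). The alternatives were not independent. Complete arrays only and leaving out IG27 replicate 2 were the same fit. The replicate block, eBayes with trend and the other filters left the fold changes of the tested genes as they were. Notch3 no longer passed with complete arrays only (0.32), normexp correction (0.30), no filter on dim probes (0.35) or the slide row as a block (0.16), and ranged from 0.21 to 0.44 when 1 array was left out, with the call lost in 4 of 6 such fits (without WT replicate 1 or any 1 IG27 replicate). Jag2 passed after quantile normalization (-0.32) and with the filter in both groups (-0.18), and ranged from -0.24 to -0.12 when 1 array was left out. In both cases the cause was not tested. With normexp correction the sizes of Jag1 (2.73) and Hes1 (2.33) and of Dll1 (-0.62) shrank. The slide row as a block compares all IG27 samples with WT replicate 2, the only WT sample in their row, and called 6 of the 9 genes and 8946 genes in all. The count of the 10 genes that passed ran from 6 to 8, with 8 to 10 of them tested, depending on the filter. With no filter on dim probes, the 7 that passed included Hey2, which was not well above background. The count of the pathway list ran from 38 to 47, the latter at an unadjusted p.

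The groups share replicate numbers, but nothing in the labels ties samples of 1 number, and the deviations of same-numbered samples correlated at 0.01, 0.04 and 0.08. With the replicate block 7 of the 9 genes passed, with Notch3 at 0.35 (limma, adjusted p = 0.0318), and 10309 genes in all.

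Dim intensities, as for Hes1, Hes5 and Dll1 in 1 group, and intensities not well above background, as for Jag1 in WT cells and Hey2, limit the sizes given.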
